A study of Arabidopsis thaliana with 12 samples.

Results

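Transcript levels in seedlings labelled hop1 hop2 hop3, a triple mutant (hop), were compared with those in wild-type Col-0 seedlings (wt), in both cases after 3 h at 38 °C. The comparison rests on 6 of the 12 libraries of the series, 3 per genotype, chosen by their labels for heat. The other 6 libraries, 3 of hop and 3 of wt seedlings kept under control conditions, helped to estimate the spread and served for the same comparison without heat. All groups were Arabidopsis thaliana seedlings aged 7 days, and the heat groups met 38 °C in the last 3 h before harvest. Of 32833 genes in the table, 23827 reached a value of 1 in 3 or more samples and were tested. The labels name the mutated genes but not the alleles, and they name no tissue other than seedlings, so that fewer cells of a type and less RNA per cell cannot be told apart. They are silent on whether replicates were grown as separate cultures, so the p-values rest on a spread that may be technical.

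HOP proteins (HSP70-HSP90 organizing proteins) are co-chaperones whose tetratricopeptide repeat domains bind HSP70 and HSP90 and pass client proteins between them. Arabidopsis has 3 genes for them, HOP1, HOP2 and HOP3. In the heat shock response, HSFA1 factors, which chaperones hold back in unstressed cells, switch on HSFA2, DREB2A and the genes of HSP101, HSP90, HSP70 and the small heat shock proteins. The genotype comparison asks which transcripts of heated seedlings differ between hop and wt.

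The 6 heat libraries held 35.1, 32.1 and 38.7 M fragments in hop and 29.9, 27.4 and 27.8 M fragments in wt, so that every hop library was deeper than every wt library. Genes with at least 1 fragment numbered 22634 to 23033 in hop and 22326 to 22583 in wt. The first principal component of the 6 heat libraries held 34.1% of their variance and separated the genotypes. Values are normalized counts, that is fragments per gene divided by a size factor per library. A gene was called at an adjusted p under 0.05 in limma. Fold changes, hop over wt, were computed on log2(value + 1), so that the change of weakly expressed genes is understated.

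The targeted genes were examined first, as a check of the labels. HOP3 (AT4G12400) had 1254, 1216 and 1346 normalized counts in hop heat libraries, against 122500, 89090 and 122600 in wt heat libraries. The hop mean was 1.14% of the wt mean, and the groups were far apart (log2 fold change -6.44, SE 0.69, adjusted p = 0.00135). HOP2 (AT1G62740) had 5128, 4046 and 4980 in hop heat and 8629, 7318 and 8058 in wt heat. The groups did not overlap, but the hop mean stood at 59.0% of the wt mean (-0.77, SE 0.12, adjusted p = 0.00199). At control HOP2 was at 7.69, 6.37 and 7.15 in hop and at 483, 635 and 548 in wt, so its deficit was far smaller under heat (interaction 5.34, adjusted p = 1.27e-10). HOP1 (AT1G12270) went against the label, with 2250, 1654 and 2299 in hop heat and 1359, 991 and 1298 in wt heat. It was higher in hop by 0.76 (SE 0.16, adjusted p = 0.00869), a call that edgeR did not make when libraries were scaled by size alone (0.63, adjusted p = 0.114). A count per gene says nothing about transcript length, and hop stands below for the libraries that carry this label.

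**Figure D1:**
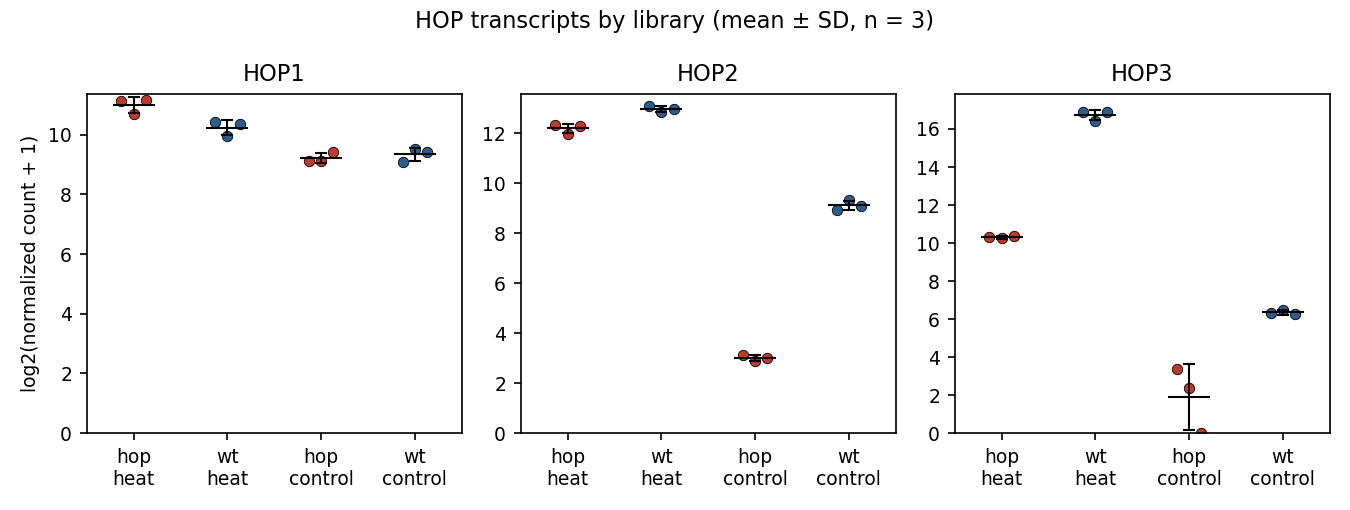
Each panel plots log2(normalized count + 1) of 1 HOP gene by library (points) in the 4 groups, hop in red and wt in blue, with the mean and SD on that scale (n = 3 each). HOP3 is lower in hop under heat and at control, HOP2 differs far less under heat than at control, and HOP1 is called higher in hop under heat and is not called at control.

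The 3 tested genes on each side of each HOP gene, in the order of the TAIR10.1 annotation, were looked at as well. AT1G62730, annotated as a terpenoid synthase superfamily protein and lying beside HOP2, had 2166, 2203 and 2378 normalized counts in hop heat and 690, 683 and 565 in wt heat. It was higher in hop under heat (log2 fold change 1.80, adjusted p = 8.24e-06) and at control (1.23, adjusted p = 0.000402). AT4G12410, a SAUR-like gene beside HOP3, had 92.8, 103 and 105 in hop heat and 31.7, 23.2 and 35.6 in wt heat (1.72, adjusted p = 0.0151). Its difference at control was -0.30 (adjusted p = 0.917), and its heat call was lost without hop heat replicate 2 (adjusted p = 0.0541) or wt heat replicate 2 (0.0531). Neither gene beside HOP1 was called, nor were SCO1 on the other side of HOP2 (0.05, adjusted p = 0.832) and PME1 on the other side of HOP3 (0.11, 0.759). Farther out, BETA-VPE near HOP2 (0.79, 0.0160) and TPPF near HOP3 (0.92, 0.0331) were called higher. AT1G12300 near HOP1 was called lower (-0.99, 0.0262). The calls of BETA-VPE and TPPF were each lost in 5 of the alternatives and that of AT1G12300 in 9.

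Across all genes, 2053 of 23827 (8.62%) were called under heat, 889 higher in hop (3.73%) and 1164 lower (4.89%), and 24.2% reached an unadjusted p under 0.05. Most differences were small: the median absolute log2 fold change of the called genes was 0.69, and 543 (2.28%) differed by 1 log2 unit or more, 251 of them higher (1.05%) and 292 lower (1.23%). Called genes lay on all 5 nuclear chromosomes at similar rates, 7.94% to 9.12% of the genes tested on each. In 25.9% of the tested genes the 3 hop and 3 wt values did not overlap. Genes called higher were longer (median 2733 bp) than genes called lower (2253 bp) and than all genes tested (2237 bp).

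The split between higher and lower depended on the scaling. With the deposited size factors 43.3% of limma's calls were higher in hop. In edgeR the share was 36.8% with TMM scaling and 16.2% with library size alone. The median log2 fold change of all genes in edgeR was -0.08 with library size alone and 0.01 with TMM. The former is a shift of -0.13 from the 0.04 in limma. With library size alone edgeR called 1219 genes (5.12%), 198 higher (0.831%) and 1021 lower (4.29%). With TMM scaling edgeR called 1736 (7.29%), 639 higher (2.68%) and 1097 lower (4.6%). DESeq2 called 2181 (9.15%), 1062 higher (4.46%) and 1119 lower (4.7%). The number of calls also rested on single libraries, with 1079 and 1133 genes called without hop heat replicate 1 or 2, and 1180 and 1196 without wt heat replicate 1 or 3. Of the 2053 genes, 711 were called in each of the 6 fits that leave out 1 heat library, 215 higher and 496 lower.

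**Figure D2:**
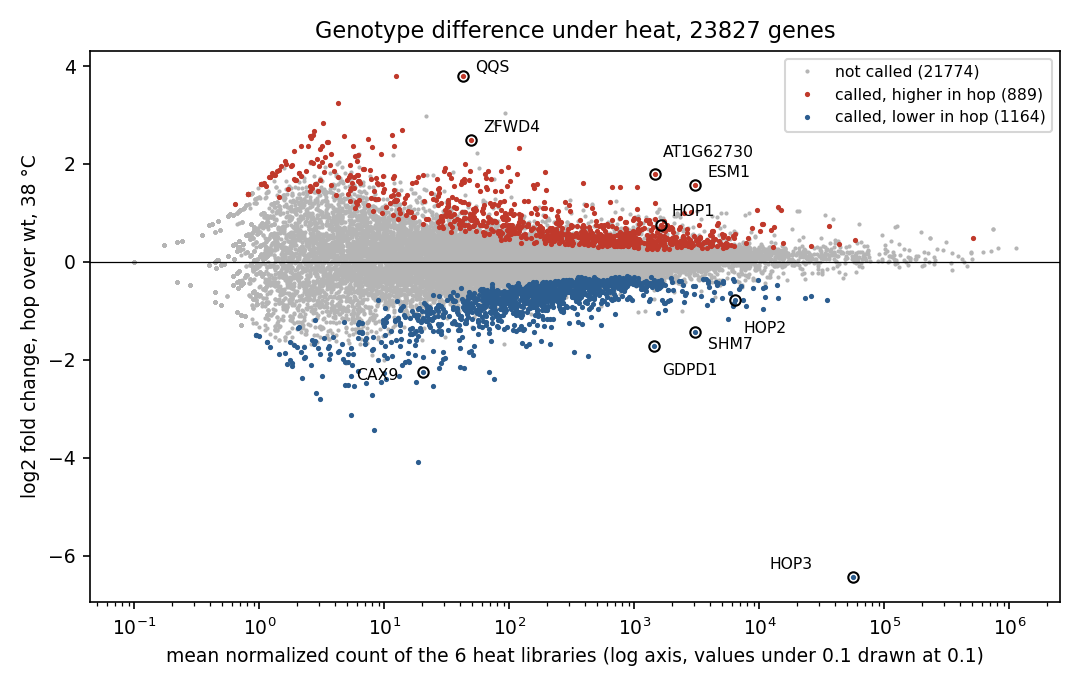
Each point is a gene, with its mean normalized count over the 6 heat libraries (log axis) and its log2 fold change, hop over wt, under heat. The 889 genes called higher are red, the 1164 called lower are blue and the others grey. HOP3 at -6.44 stands apart, and most called genes lie within 1 log2 unit of 0.

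Among called genes with a symbol, a mean of at least 20 normalized counts over the heat libraries and no overlap, the largest rise was that of QQS (AT3G30720), an orphan gene known to act on the balance of starch and protein. It had 122, 53.7 and 61.9 normalized counts in hop heat and 1.32, 9.93 and 5.27 in wt heat (3.79, SE 0.47, adjusted p = 0.000462). It was also higher in hop at control (3.15, adjusted p = 0.00512). ZFWD4, a CCCH zinc finger protein, had 57.0, 94.3 and 100.1 in hop heat and 7.93, 19.9 and 15.8 in wt heat (2.49, SE 0.45, adjusted p = 0.00429). Its difference at control was -0.49 (adjusted p = 0.855), and the interaction was not called (2.98, adjusted p = 0.104).

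ICL, the isocitrate lyase of the glyoxylate cycle, which turns stored lipid into sugar, had 519, 784 and 449 in hop heat and 135, 265 and 179 in wt heat (1.61, adjusted p = 0.0135). The late embryogenesis abundant (LEA) genes GEA6 (1.59, adjusted p = 0.0293), ECP63 (1.58, 0.0119) and LEA18 (1.55, 0.0140) rose, as did the abscisic acid-responsive gene HVA22B (1.92, 0.0198). For LEA18 the hop values were 127, 145 and 140 and the wt values 29.1, 94.3 and 35.6, with wt replicate 2 the highest of its group. DAA1, an ATPase of the P-loop superfamily, had 96.7, 109 and 113 in hop heat and 26.4, 21.5 and 40.9 in wt heat (1.85, adjusted p = 0.00111). The calls of HVA22B, GEA6, ECP63 and LEA18 were lost on leaving out single libraries. The highest adjusted p among those fits was 0.113, for GEA6 without wt heat replicate 1. ICL and DAA1 kept their calls in every alternative run. Both were higher in hop at control too (1.73 and 1.40, adjusted p = 0.0354 and 0.0234). HVA22B, GEA6, ECP63 and LEA18 were not called at control, with differences of 1.46, 1.32, 1.16 and 1.40 (adjusted p = 0.0888 to 0.213).

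ESM1, a GDSL esterase that steers glucosinolate breakdown towards isothiocyanates, had 5268, 4654 and 3747 in hop heat and 1492, 1630 and 1442 in wt heat (1.57, adjusted p = 0.0186). UGT91A1, a glycosyltransferase (1.69, 0.0271), EIL5, an EIN3-like transcription factor (1.65, 0.00983), and ABCF2, an ABC protein of the F class (1.54, 0.0123), were also higher in hop. ESM1 and UGT91A1 lost their calls without hop heat replicate 1 or 2 or wt heat replicate 1 or 3 (adjusted p 0.0542 to 0.0997 over those fits). EIL5 and ABCF2 kept theirs in every alternative run. ABCF2 was higher in hop at control too (1.99, adjusted p = 0.0118), at 1.71, 7.78 and 3.25 in hop and 0, 0.614 and 0 in wt. ESM1, UGT91A1 and EIL5 were not called at control (0.60, 1.12 and 1.03, adjusted p = 0.253 to 0.623).

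After HOP3, the largest fall under the same conditions was that of CAX9 (AT3G14070), a cation exchanger that the table names CCX3. It had 5.30, 8.71 and 5.16 normalized counts in hop heat and 23.8, 38.1 and 40.9 in wt heat (-2.25, SE 0.29, adjusted p = 0.000557). WDR5a, a subunit of histone H3 lysine 4 methyltransferase complexes, had 7.95, 11.6 and 16.5 in hop heat and 60.8, 41.4 and 44.8 in wt heat (-1.97, adjusted p = 0.00203). CAX9 was lower in hop at control too (-1.51, adjusted p = 0.0243). WDR5a differed by -0.29 at control, where it was not called (adjusted p = 0.886).

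NRPB7, a subunit of RNA polymerase II, had 19.9, 24.7 and 13.4 in hop heat and 51.6, 61.2 and 64.6 in wt heat (-1.60, adjusted p = 0.000722). RS31a, an SR splicing factor, had 72.9, 50.8 and 58.8 in hop heat and 169, 237 and 174 in wt heat (-1.65, adjusted p = 0.00170). RS31a was lower in hop at control too (-1.24, adjusted p = 0.0341). The cyclin CYCB1;5 fell under heat (-1.94, 0.0139) and at control (-3.21, 0.00213), and its heat call was lost without wt heat replicate 3 (adjusted p = 0.0547). DIN2, a sugar-starvation beta-glucosidase (-2.14, 0.0382), and GAMT2, which methylates gibberellins (-1.72, 0.0267), fell as well, and each lost its call in 6 of the alternatives.

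The heat shock response itself was examined through lists of its genes. Every list count below stands beside 8.62% of all genes called and 24.2% at an unadjusted p under 0.05. A short list holds few calls at 8.62%, so its count of 0 or 1 says little by itself. Among 18 small heat shock proteins, which hold unfolding proteins in solution, limma called 0 in either direction, with 0 at an unadjusted p under 0.05 and 0 by edgeR or DESeq2. Their log2 fold changes ran from -0.21 to 0.31, with a median of 0.06 beside 0.04 for all genes. HSP17.6C had 508800, 501900 and 513700 normalized counts in hop heat and 509100, 456900 and 498000 in wt heat, and these values overlapped. The summed level of the 18 genes ran from 3309000 to 3581000 in hop heat libraries and from 3359000 to 3463000 in wt heat libraries. In a fit of the 6 heat libraries alone, each of the 18 genes had a 95% interval within 1 log2 unit of no difference, from -0.52 to 0.97 over the list.

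Of the 10 HSP90 and HSP100 genes limma called 0, with 3 at an unadjusted p under 0.05, all higher in hop; edgeR called 0 and DESeq2 called 2 higher. The median of this list was 0.19. HSP101, the disaggregase needed for acquired thermotolerance, had 350700, 370700 and 237000 in hop heat and 261100, 293400 and 245300 in wt heat (0.24, 95% interval -0.15 to 0.62 in the 6 heat libraries). HSP90.1, the heat-induced cytosolic HSP90, had 547400, 577400 and 452700 in hop heat and 455200, 464700 and 450000 in wt heat (0.20, -0.13 to 0.52). In both genes hop replicates 1 and 2 stood above all wt libraries, while hop replicate 3 lay below all of them for HSP101 and among them for HSP90.1. At control HSP90.1 was higher in hop (0.63, adjusted p = 0.0218).

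Of the 17 HSP70 and HSP110 genes, 1 rose. HSP70-2, a cytosolic HSP70, had 1501, 1714 and 963 in hop heat and 673, 814 and 726 in wt heat (0.88, adjusted p = 0.0203), and this call was lost without hop heat replicate 1 or 2 or wt heat replicate 1 or 3 (0.0619 to 0.0884). The strongly expressed HSP70-4 and HSP70b differed by 0.20 and 0.18, with intervals of -0.19 to 0.59 and -0.17 to 0.54 in the 6 heat libraries. Of 12 other HSP90 co-chaperones, among them the immunophilin ROF1, limma, edgeR and DESeq2 each called 0, with 0 at an unadjusted p under 0.05. Their log2 fold changes ran from -0.22 to 0.15.

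Among 21 heat shock factors 1 rose. HSFA1E, of the class that starts the response, had 1137, 923 and 974 in hop heat and 694, 774 and 635 in wt heat (0.53, adjusted p = 0.0390), a call that edgeR with library sizes only did not make (adjusted p = 0.158). It was lost without 5 of the 6 heat libraries in turn, at adjusted p of 0.0548 to 0.153. HSFA2, the factor that prolongs the response, had 80370, 83890 and 49930 in hop heat and 63190, 63310 and 55910 in wt heat (0.20, 95% interval -0.19 to 0.58 in the 6 heat libraries). Among 14 other regulators and genes of acquired thermotolerance limma, edgeR and DESeq2 called 0, with 0 at an unadjusted p under 0.05. Of these, HSA32, needed to keep acquired thermotolerance, differed by -0.20 (-0.46 to 0.07), DREB2A by -0.13 (-0.40 to 0.14), MBF1C by 0.02 (-0.26 to 0.31) and APX2 by 0.21 (-0.07 to 0.49). The intervals are those of the 6 heat libraries alone, and they do not show that the genotypes were alike.

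In the endoplasmic reticulum, 0 of 16 genes of the unfolded protein response were called by limma, edgeR or DESeq2, with 1 higher and 1 lower at an unadjusted p under 0.05. The transcription factor bZIP60 differed by 0.05 (95% interval -0.24 to 0.35 in the 6 heat libraries) and the chaperone BIP1 by -0.15 (-0.40 to 0.09). BIP3, an inducible BiP, had only 2.65, 10.2 and 2.06 in hop heat and 3.97, 1.66 and 15.8 in wt heat, too few for a direction. In the proteasome 1 of 54 genes rose, RPT6B (0.28, adjusted p = 0.0419), which lost its call in 9 of the alternatives and shares near-identical stretches with RPT6A, so that counts could be split between them. Among these 54 genes edgeR with TMM called 0 higher and 1 lower, and DESeq2 called 1 higher and 1 lower. The lowest log2 fold change of the list in limma was that of PAC2 (-0.80).

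Autophagy genes moved in opposite directions within the ATG8 family, whose ubiquitin-like proteins are tied to the autophagosome membrane. ATG8G had 22.5, 21.8 and 18.6 normalized counts in hop heat and 62.1, 89.4 and 79.1 in wt heat (-1.81, SE 0.17, adjusted p = 5.76e-05). ATG8D had 156, 165 and 133 in hop heat and 250, 266 and 237 in wt heat (-0.73, adjusted p = 0.00390). ATG8B had 758, 747 and 726 in hop heat and 510, 587 and 493 in wt heat (0.49, adjusted p = 0.00888), a call lost by library size alone (0.0858 in edgeR). All of them were called in the same direction at control, and they are 3 of the 14 autophagy genes tested (21.4%, beside 8.62% called over all genes), whose median was -0.07.

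Of 17 genes that mark sulfur deficiency, 6 fell, 1 rose and 10 were not called in hop heat. That is 41.2% called, beside 8.62% over all genes, and the list median was -0.44 beside 0.04. APR3, which with APR1 and APR2 encodes the adenylylsulfate reductases at the rate-controlling step of sulfate reduction, had 3712, 3658 and 3077 in hop heat and 7485, 7363 and 8567 in wt heat (-1.17, SE 0.14, adjusted p = 0.000353). APR2 had 5649, 5693 and 4920 in hop heat and 8787, 10530 and 10970 in wt heat (-0.89, adjusted p = 0.00415). In both, every hop library lay below every wt library.

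SHM7, a serine hydroxymethyltransferase induced by low sulfur, had 1746, 1511 and 1679 in hop heat and 4164, 4254 and 4992 in wt heat (-1.44, SE 0.12, adjusted p = 2.31e-05). APR1 (-0.59, 0.00571), SDI2, a repressor of glucosinolate synthesis (-0.77, 0.0304), and BGLU28, a beta-glucosidase (-1.90, 0.0449), fell too. The sulfate transporter SULTR2;1 rose, with 1092, 1159 and 1222 in hop heat and 726, 768 and 854 in wt heat (0.57, adjusted p = 0.00781). The classic markers LSU1, LSU2 and LSU3 were not called (-0.20, -0.12 and -0.35, adjusted p = 0.672 to 0.892). At control the median of the 17 sulfur deficiency genes was -0.06. Leaving out 1 heat library in turn left 4 to 6 genes of the list called lower.

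Aliphatic glucosinolates, sulfur-rich defence compounds, are made from methionine by chain elongation, core synthesis and side chain changes. Of 19 genes tested 5 rose in hop heat (26.3%, beside 8.62% called over all genes) and 14 were not called, with a median of 0.72. At an unadjusted p under 0.05, 13 were higher, where 24.2% of all genes passed in either direction. By library size alone edgeR called 2 higher. In chain elongation, MAM1 had 1720, 1780 and 1597 in hop heat and 953, 862 and 992 in wt heat (0.86, SE 0.11, adjusted p = 0.000600). IPMI2, the small subunit of an isopropylmalate isomerase, had 945, 1059 and 706 in hop heat and 378, 391 and 370 in wt heat (1.23, adjusted p = 0.0113). Every hop library lay above every wt library for both, and both were called in every alternative run.

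IPMDH1 of the same pathway rose by 0.64 (adjusted p = 0.00475). In core synthesis CYP83A1 had 290, 235 and 283 in hop heat and 180, 174 and 145 in wt heat (0.69, adjusted p = 0.0160). CYP79F2 had 11.9, 11.6 and 16.5 in hop heat and 0, 4.96 and 2.64 in wt heat, levels of a few fragments (2.35, adjusted p = 0.0146), and was not called by edgeR (0.0716). Of their regulators, MYB28 was not called (-0.02, adjusted p = 0.981). MYB29 was not called either (adjusted p = 0.0610), at 55.65 to 75.34 in hop heat and 19.83 to 34.75 in wt heat. Among 13 indole glucosinolate genes SUR1 (0.48, 0.0398) and CYP79B3 (0.46, 0.0205) rose, and neither was called by library size alone (0.286 and 0.170 in edgeR). SUR1 was not called by edgeR with TMM (0.0944) or DESeq2 (0.0658) either. The medians at control were 0.07 for aliphatic and 0.01 for indole genes.

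Of 14 flavonoid genes 5 rose in hop heat (35.7%, beside 8.62% called over all genes) and 9 were not called, with a median of 0.59. By library size alone edgeR called 3 higher. TT4, the chalcone synthase that opens the pathway, had 19070, 15940 and 13520 in hop heat and 12240, 9739 and 7887 in wt heat (0.71, adjusted p = 0.0141). F3H, a flavanone hydroxylase, had 1613, 1367 and 1253 in hop heat and 924, 798 and 716 in wt heat (0.80, SE 0.13, adjusted p = 0.00207). FLS1, the flavonol synthase, had 1268, 1051 and 933 in hop heat and 784, 544 and 542 in wt heat (0.81, adjusted p = 0.00745).

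In these 3 genes replicate 1 was the highest library of each genotype and the groups did not overlap. The chalcone isomerase TT5 (0.64, 0.0472) and the flavonoid glucosyltransferase UGT78D2 (0.58, 0.00922) rose too. TT5 lost its call in 8 of the alternatives, among them edgeR with TMM (0.0714). MYB12 and MYB111, which activate flavonol genes, were not called (-0.05 and -0.61, adjusted p = 0.956 and 0.336). Called flavonoid genes numbered 3 without hop heat replicate 1 or wt heat replicate 3. At control 1 flavonoid gene was called, and the list median was 0.19.

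**Figure D3:**
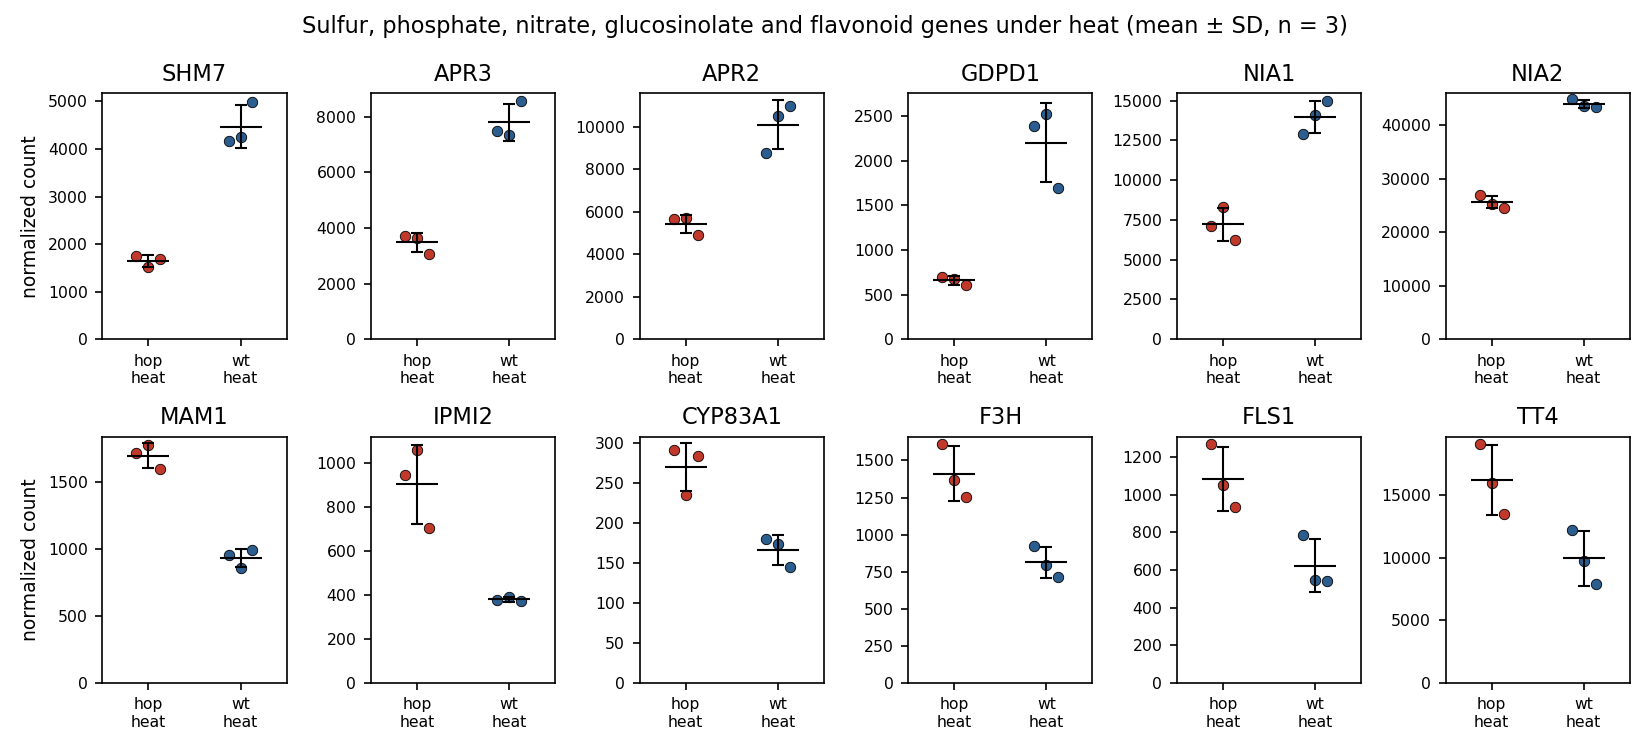
Normalized counts by library (points) of 12 genes under heat, hop in red at the left and wt in blue at the right of each panel, with the mean and SD (n = 3 each) and axes that start at 0. SHM7, APR3, APR2, GDPD1, NIA1 and NIA2 in the upper row are lower in hop, and MAM1, IPMI2, CYP83A1, F3H, FLS1 and TT4 in the lower row are higher, with no overlap in any panel.

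Of 14 phosphate starvation genes 4 fell and 1 rose in hop heat (35.7%, beside 8.62% called over all genes), with a median of -0.07. GDPD1, which releases phosphate from glycerophosphodiesters, had 698, 679 and 605 in hop heat and 2396, 2526 and 1694 in wt heat (-1.72, SE 0.13, adjusted p = 8.24e-06). SPX1, a phosphate sensor, had 516, 591 and 558 in hop heat and 915, 988 and 896 in wt heat (-0.75, adjusted p = 0.00624). The phosphatase PS2 (-1.40, 0.0266) and the galactolipid synthase MGD2 (-1.19, 0.0365) fell at levels under 60 normalized counts in each heat library. MGD2 was not called by edgeR with TMM (0.103) or DESeq2 (0.0865). PHO1, which loads phosphate into the xylem, rose by 0.57 (adjusted p = 0.00445), and the transporters PHT1;1 and PHT1;4 were not called (0.48 and -0.08, adjusted p = 0.117 and 0.834). Without hop heat replicate 1 or 2, or wt heat replicate 1 or 3, 2 genes of the list were called lower.

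Both nitrate reductase genes were lower in hop heat, and a nitrate transporter was higher. NIA2, the main nitrate reductase, had 26930, 25390 and 24610 in hop heat and 44950, 43630 and 43540 in wt heat (-0.78, SE 0.09, adjusted p = 0.000234). NIA1, the other nitrate reductase, had 7137, 8315 and 6236 in hop heat and 12930, 14090 and 14950 in wt heat (-0.96, SE 0.13, adjusted p = 0.000722). The nitrite reductase NIR1, the next enzyme, was not called (-0.04, adjusted p = 0.891). NRT2.1, a high-affinity nitrate transporter of roots, rose, with 80.8, 104.5 and 105 in hop heat and 42.3, 33.1 and 25.04 in wt heat (1.53, adjusted p = 0.0151). LBD39, a repressor of nitrate responses, fell by 0.34 on the log2 scale (adjusted p = 0.0264). In all, 3 of 12 genes of nitrate uptake and reduction fell and 1 rose (33.3%, beside 8.62% called over all genes), with a median of -0.01. The NRT2.1 call was lost without hop heat replicate 2 (0.0585) or wt heat replicate 3 (0.0634).

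Of 21 effector genes of abscisic acid and cold 5 rose and 1 fell (28.6%, beside 8.62% called over all genes), with a median of 0.22. RD29B, an abscisic acid-responsive LEA-like gene, had 961, 1065 and 1349 in hop heat and 288, 490 and 410 in wt heat (1.52, SE 0.17, adjusted p = 0.000167). It was also higher in hop at control (0.97, adjusted p = 0.0148). COR15A, a chloroplast protein that protects membranes in the cold (1.23, 0.0207), HAI1, a protein phosphatase 2C (0.65, 0.0290), KIN1 (0.54, 0.0119) and KIN2 (0.57, 0.0251) rose. RD29A, RAB18 and COR47 were not called (0.22, 0.14 and -0.11, adjusted p = 0.172, 0.680 and 0.558). The cold regulator CBF1 fell at levels of 1.33 to 5.16 in hop heat and 5.29 to 14.9 in wt heat (-1.55, 0.0241), and edgeR did not call it (0.0810). The count of rises in this list fell to 1 without wt heat replicate 1 and to 2 without hop heat replicate 2 or wt heat replicate 3.

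Of 24 auxin response genes 4 fell (16.7%, beside 8.62% called over all genes), with a median of -0.18, and edgeR called 2 lower. PIN3, an auxin efflux carrier, had 477, 499 and 536 in hop heat and 944, 794 and 829 in wt heat (-0.76, SE 0.13, adjusted p = 0.00312). IAA4 (-0.62, 0.0197), SAUR21 (-1.19, 0.0163) and SAUR24 (-1.22, 0.0251) fell, and 1 gene of the list was called lower without hop heat replicate 1 or wt heat replicate 3. Neither SAUR21 (0.0997) nor SAUR24 (0.110) was called by edgeR with TMM, and DESeq2 did not call SAUR24 (0.142). SAUR genes of this cluster are near-identical copies, and their counts could be split between them.

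JAZ10, a repressor of jasmonate signalling that jasmonate itself induces, had 343, 354 and 297 in hop heat and 140, 185 and 156 in wt heat (1.05, SE 0.19, adjusted p = 0.00480). JAZ9, another repressor of the family, fell by 0.47 on the log2 scale (adjusted p = 0.0261). Its call was lost without hop heat replicate 1 or 2 or wt heat replicate 2 or 3 (0.0515 to 0.0940). JAZ10 and JAZ9 were the only calls among 19 jasmonate genes in limma (10.5%, beside 8.62% over all genes), whose median was 0.24. In the circadian clock 1 of 16 genes rose, the morning factor LHY, with 489, 508 and 474 in hop heat and 313, 276 and 306 in wt heat (0.72, SE 0.11, adjusted p = 0.00136), and it was higher at control too (0.64, adjusted p = 0.0107). Of the clock genes, edgeR with TMM and DESeq2 each called 1 higher and 1 lower under heat.

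Among 19 genes of salicylic acid and immunity limma called FLS2 alone, at 1.33, 1.45 and 1.03 in hop heat, which is 1 fragment per library, and 0 in wt heat, too few for a fold. Among 14 reactive oxygen genes limma called 0, with 2 higher and 1 lower at an unadjusted p under 0.05. DESeq2 and edgeR with TMM called 0, and edgeR by library size alone called 2 lower. Of 35 cell cycle genes 1 fell, the A-type cyclin CYCA3;4 (-1.16, adjusted p = 0.0352, 0.0626 in edgeR). The medians were 0.12 for the immunity list, 0.17 for reactive oxygen and 0.15 for the cell cycle.

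**Figure D4:**
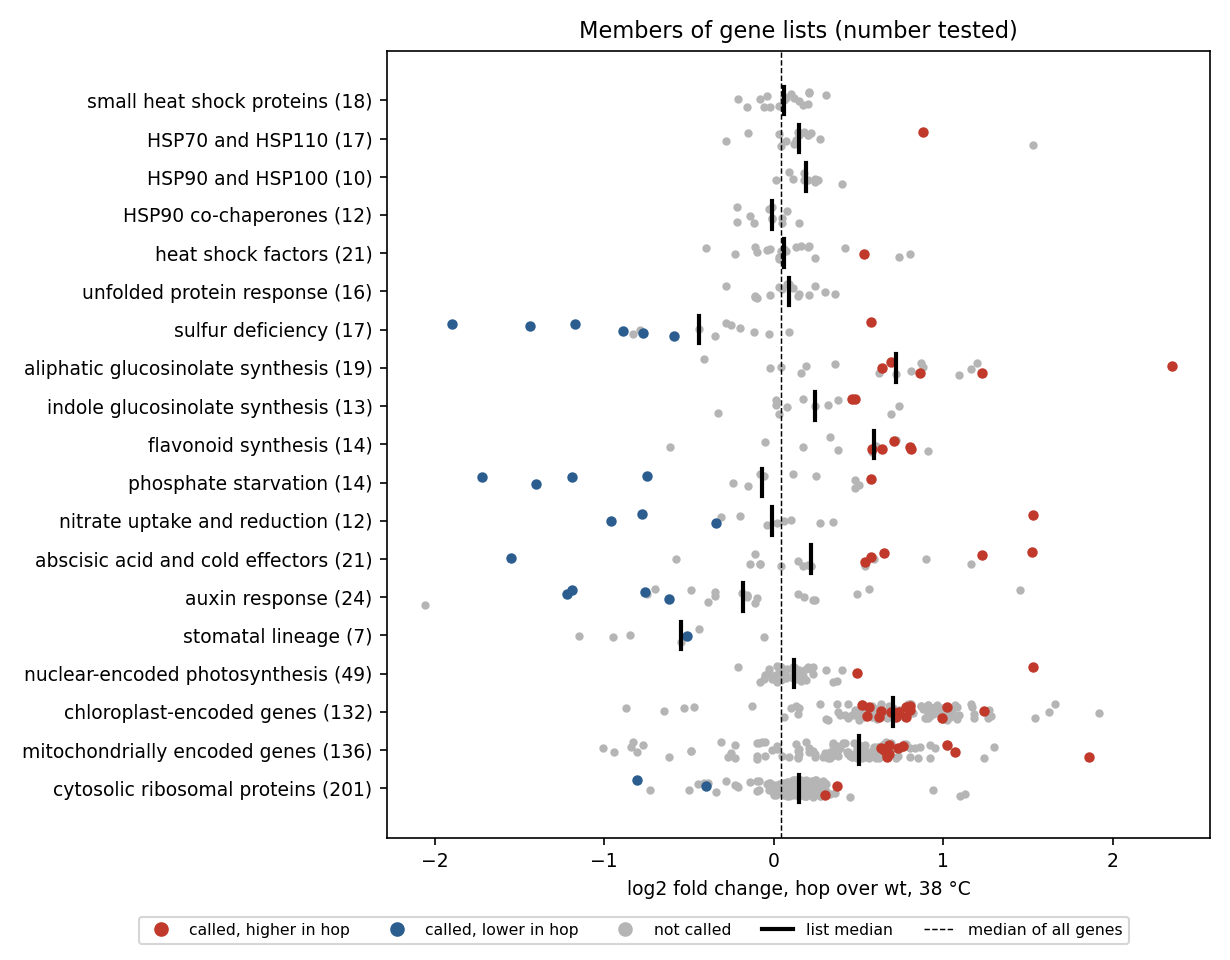
Log2 fold change, hop over wt, under heat for each tested gene of 19 lists (points, number tested in parentheses), with genes called higher in red, called lower in blue and not called in grey. The thick line is the list's median and the dashed line the median of all genes, 0.04. The small heat shock proteins lie close to 0, the sulfur deficiency genes reach to the left, and most flavonoid, aliphatic glucosinolate and organelle-encoded genes lie to the right.

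Of all fragments, mitochondrially encoded genes took 1.14%, 1.29% and 1.02% in hop heat libraries and 0.785%, 0.876% and 0.737% in wt heat libraries. The groups did not overlap, and the exact two-sided permutation p of 0.1 is the smallest that 3 against 3 libraries can give. Of 136 such genes 12 rose, with a median of 0.50. That is 8.82% called, with 0 lower, beside 8.62% called in either direction and 3.73% called higher over all genes. ATP1, a subunit of the mitochondrial ATP synthase, had 13910, 14380 and 10860 in hop heat and 5978, 6883 and 5665 in wt heat (1.07, adjusted p = 0.0313). The neighbouring reading frame ORF294 (1.02, 0.0304), ATP9 of the same enzyme (0.76, 0.0285) and ORF122C (1.86, 0.0243, at levels under 6 normalized counts) rose too. Without wt heat replicate 1 or 3 the count of rises was 3, and without hop heat replicate 1 or 2 it was 4; edgeR called 26.

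Chloroplast-encoded genes took 6.52%, 9.35% and 5.18% of fragments in hop heat and 3.85%, 7.65% and 3.76% in wt heat, and these shares overlapped (exact permutation p = 0.3, two-sided). Of 132 genes 18 rose (13.6%, beside 8.62% called over all genes), with a median of 0.70. The called genes included RPOA, a subunit of the plastid-encoded RNA polymerase (0.70, adjusted p = 0.00375), and genes of plastid ribosomal proteins such as the copies of rpl23-B (0.80, 0.0137 and 0.0199). The transfer RNA gene TRNL,1 had 3590, 3185 and 3142 in hop heat and 1589, 1954 and 1475 in wt heat (0.99, 0.00976). Genes of the inverted repeat are present in identical copies, so that their counts could be split. The count of rises was 8 without hop heat replicate 2, 11 without hop heat replicate 1, 7 without wt heat replicate 3 and 30 without wt heat replicate 2. An mRNA kit was used, which selects polyadenylated RNA and so samples organelle transcripts in part, and the part of library depth in these shares was not tested.

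Of 49 nuclear genes of photosynthesis 2 rose and 0 fell (4.08% called), with a median of 0.12. Over all genes 3.73% were called higher and 8.62% in either direction. LHCB4.3, a light-harvesting protein of photosystem II, had 2022, 1473 and 1234 in hop heat and 599, 538 and 477 in wt heat (1.53, SE 0.16, adjusted p = 0.000124), and was higher at control as well (1.09, adjusted p = 0.00464). RBCS1A, a small subunit of Rubisco, rose by 0.49 (0.0372), and edgeR did not call it (0.0790). Of 201 genes of cytosolic ribosomal proteins 2 rose and 2 fell (1.99% called), with a median of 0.15. RPL39B had 86.1, 100.1 and 101.1 in hop heat and 163, 156 and 189 in wt heat (-0.81, adjusted p = 0.00277), RPL18AA fell by 0.40 on the log2 scale (0.0221), and the rises of RPL7D (0.37, 0.0492) and RPS26C (0.30, 0.0484) were not called by edgeR.

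Markers of tissues and cell types were summed in each library, and their part in the results was not tested. The 6 root genes, which include NRT2.1 and the beta-glucosidase PYK10, summed to 61800 to 80230 normalized counts in hop heat and 48330 to 56480 in wt heat, with 2 genes called higher and a median of 0.46. Most of this sum is PYK10, with 75060, 68030 and 57920 in hop heat and 49480, 52650 and 44910 in wt heat. The PYK10 call in limma (0.45, adjusted p = 0.0498) was not made by edgeR with TMM (0.0684), and RSL4 had a negative fold change (-0.43). The 6 green leaf genes overlapped (1807000 to 2220000 in hop heat, 1410000 to 1886000 in wt heat), and RBCS1A alone of them was called in limma. The 7 stomatal lineage genes summed to 225 to 343 in hop heat and 376 to 412 in wt heat. All 7 had negative fold changes, with a median of -0.55, and FAMA was the only call (-0.51, adjusted p = 0.0460, 0.0527 in edgeR).

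Endodermis genes overlapped (557 to 1103 in hop heat, 844 to 1212 in wt heat), and CASP1 and SCR were not called (-0.33 and -0.23, adjusted p = 0.715 and 0.234). Root hair genes summed to 473 to 681 in hop heat and 614 to 813 in wt heat, xylem genes to 4271 to 4326 and 3331 to 4166, and seed storage genes to 203 to 557 and 43.6 to 721. In these 3 lists limma and edgeR called 0 genes, DESeq2 called 1 root hair gene lower, and at an unadjusted p under 0.05 there were 2 root hair genes lower, 1 xylem gene higher and 1 seed storage gene higher.

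The same genotype comparison at control, between the 3 hop and 3 wt control libraries in the fit of all 12 libraries, called 198 genes (0.831%), 82 higher (0.344%) and 116 lower (0.487%), and DESeq2 called 448 (1.88%). The count at control rested on the fit, with 82 genes called in the 6 control libraries alone, 274 with the replicate number as a block and 1156 with that block within the 6 control libraries. Of the 198 genes, 123 were also called under heat, which is 62.1% of the control calls and 5.99% of the heat calls. Among the shared genes 45 were higher in both conditions, 77 lower in both, and 1 changed side. That gene was AT4G20350, annotated as an oxidoreductase. It had 1202, 1030 and 1420 normalized counts in hop heat and 794, 857 and 726 in wt heat (0.61, adjusted p = 0.0129). At control it had 27.3, 33.2 and 33.2 in hop and 52.9, 54.1 and 49.4 in wt (-0.73, adjusted p = 0.0199). A call in 1 condition only does not show that the conditions differ, and the difference was tested as the interaction of genotype and heat.

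The interaction was called for 12 genes (0.0504%), 9 with a lower (0.0378%) and 3 with a higher (0.0126%) hop over wt difference under heat. Among those with a lower difference were GDPD1 (-1.35, SE 0.19, adjusted p = 0.0169), SHM7 (-1.19, SE 0.17, adjusted p = 0.0219) and NIA2 (-0.80, SE 0.13, adjusted p = 0.0344). SHM7 had 313, 354 and 259 in hop control and 361, 412 and 328 in wt control, far below its heat values. CSN5A, the catalytic subunit of the COP9 signalosome, which removes NEDD8 from cullin ubiquitin ligases, had 180, 179 and 155 in hop heat and 346, 361 and 323 in wt heat, so that the hop mean was 49.9% of the wt mean (adjusted p = 5.76e-05). At control its difference was -0.14 (adjusted p = 0.725), which gave an interaction of -0.86 (SE 0.14, adjusted p = 0.0344).

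HAM1, a MYST-family histone acetyltransferase, had 412, 387 and 460 in hop heat and 718, 736 and 725 in wt heat (-0.79, adjusted p = 0.000251), and 413, 388 and 432 in hop control and 382, 423 and 398 in wt control. Its interaction was -0.83 (SE 0.13, adjusted p = 0.0344). The count of interactions varied with the method, with 29 in edgeR (0.122%), 4 by library size alone (0.0168%), 182 in DESeq2 (0.764%), 94 without hop heat replicate 3 and 1 to 15 without each other library in turn.

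**Figure D5:**
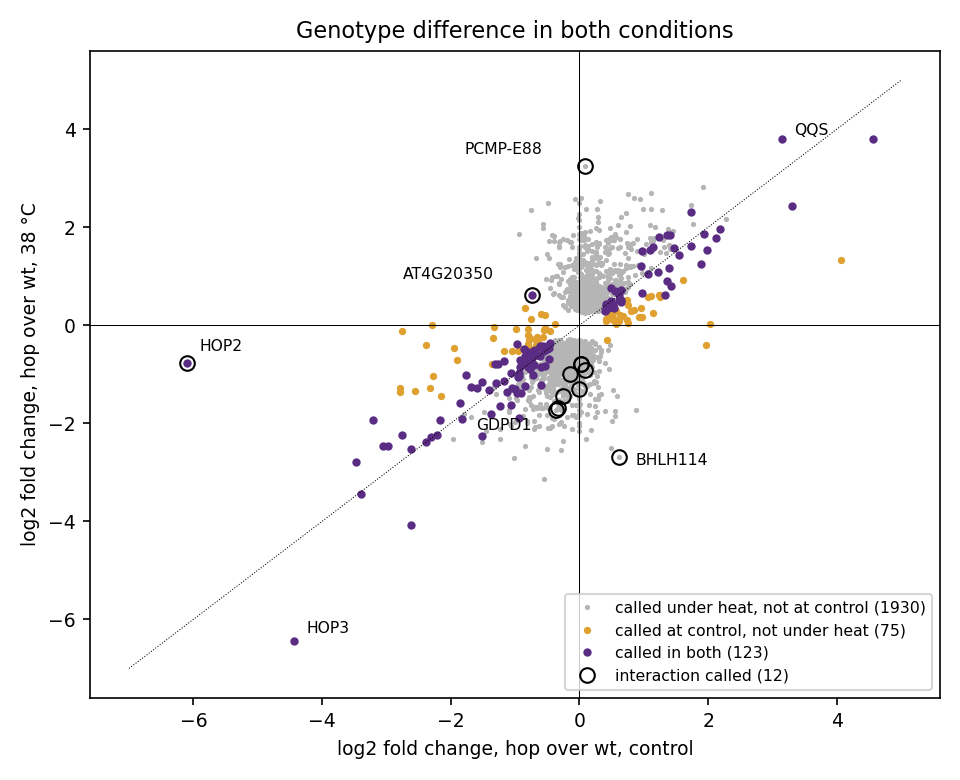
Genes called in at least 1 condition, with the log2 fold change, hop over wt, at control on the horizontal and under heat on the vertical axis. The 123 genes called in both conditions are purple and lie mostly along the dotted line of equal differences, the genes called under heat and not at control are grey and lie around 0 on the horizontal axis, and circles mark the 12 interactions, with HOP2 farthest from the line.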

How the data were processed

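Per the labels' protocols, 12 mRNA libraries of Arabidopsis thaliana seedlings were made with a kit that keeps strand. The submitters' processing notes list TopHat2 2.1.0 along with HTSeq and with DESeq2 1.1.14, and give none of them a role or order. The genome build, annotation and counting settings are not given in the sources used here, so antisense, overlapping and near-identical genes are uncertain. The authors deposited expression signal values for 32833 genes, headed as normalized per the file headers. Each is a fragment count divided by a size factor. Whole fragments were recovered for 100% of values (tolerance 0.01). Deposited fold changes and p-values were not used.

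Groups were taken from the labels. limma 3.58.1 in R 4.3.3, with its trend and robust options, was fitted to log2(value + 1) of all 12 libraries with 4 group means. P-values were adjusted by Benjamini-Hochberg over the 23827 tested genes. Intervals are 95% intervals of that fit or of the 6 heat libraries alone, where stated. A fit of these 6 leaves out the spread of control libraries, in which heat-induced genes are near 0. The alternatives were edgeR 4.0.16 quasi-likelihood with TMM or library size alone and DESeq2 1.42.0 on recovered counts. Others were pseudocounts of 0.5 and 5, no filter, a mean of at least 10, a replicate block, the 6 libraries of a condition and leaving out each library. On simulated counts for hop heat against wt heat (23564 genes), limma recovered 91 of 100 genes at 2-fold and 99 of 100 at 4-fold, with 24 false calls.

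Same-numbered hop and wt libraries deviated together at control (correlations 0.543, 0.333 and 0.351) but not in every pair under heat. The numbers may pair the control libraries, but 3 libraries per group are too few for this check to show it. Control results are from the fit without the block (198 calls), and the fit with it gave 274.

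Text names HOP1 to HOP3, then the 12 largest rises and falls among called genes that changed by at least 1 log2 unit, averaged at least 20, did not overlap and have a symbol. It names up to 4 called members per list, 15 heat genes whatever their result and the 4 largest interactions each way. For genes at 0 in a group, 3 fragments over the group served as floor, which covers counting error only. The members, lists and rules were chosen with earlier results of these data known. Other genes were named after their values were seen, among them neighbours of HOP genes and list members that were not called. Neighbours, gene lengths and missing symbols came from the TAIR10.1 annotation, which matched 32548 genes (99.1%). No sequences or coordinates are given. A few genes that the rule names are not reported here. Figures were drawn with matplotlib 3.10.9.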

Additional observations from a re-analysis of the deposited data

Results flagged for a closer look

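These 12 genes were singled out because the hop over wt difference under heat differed from that at control in limma's interaction test. Interaction values are log2 differences, heat minus control.

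HOP2 had the largest, 5.34 (SE 0.17, adjusted p = 1.27e-10), with a difference of -0.77 under heat and -6.10 at control. GDPD1 (-1.35, adjusted p = 0.0169), SHM7 (-1.19, 0.0219), NIA2 (-0.80, 0.0344), CSN5A (-0.86, 0.0344) and HAM1 (-0.83, 0.0344) were lower in hop under heat and not called at control.

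AT1G61300, annotated as a probable disease resistance protein, had 105, 100.1 and 96.0 normalized counts in hop heat and 321, 318 and 330 in wt heat. Its control values were 308, 344 and 296 in hop and 476, 374 and 350 in wt. Its interaction was -1.35 (SE 0.17, adjusted p = 0.0092). AT2G40980, annotated as a protein kinase, had 74.2, 62.4 and 51.6 in hop heat and 141, 156 and 165 in wt heat (interaction -1.29, adjusted p = 0.0343). AT5G15270, an RNA-binding protein with a KH domain, had 182, 194 and 225 in hop heat and 348, 387 and 397 in wt heat (interaction -0.996, adjusted p = 0.0305).

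BHLH114, a basic helix-loop-helix factor, was at 0 in the 3 hop heat libraries and at 7.93, 4.96 and 3.95 in wt heat, at least 4.42-fold lower in hop. At control it had 39.3, 21.2 and 27.3 in hop and 27.4, 12.9 and 17.2 in wt, and the interaction was -3.29 (adjusted p = 0.0344). PCMP-E88, a mitochondrial pentatricopeptide repeat protein, had 7.95, 7.26 and 10.3 in hop heat and 0 in the 3 wt heat libraries, at least 5.94-fold higher in hop. At control it had 35.9, 35.4 and 41.0 in hop and 31.03, 36.9 and 37.2 in wt (interaction 3.14, adjusted p = 0.0092). AT4G20350, which was higher in hop under heat and lower at control, had an interaction of 1.34 (adjusted p = 0.0207).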

How the results depend on the processing

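Of 82 called genes named by the rule, 35 kept their call in every alternative and 0 changed direction. Calls were lost for 24 of the 82 by library size alone, 18 in edgeR with TMM, 5 in DESeq2, 18 in the 6 heat libraries alone and 8 to 40 on leaving out 1 heat library. Genes called under heat numbered 2053, 1219 by library size alone and 1079 to 2334 without 1 library. Other alternatives gave 1534 to 2919. At control 198 genes were called, 448 by DESeq2, 82 in the 6 control libraries alone and 54 to 163 without 1 library. Interactions numbered 12, 29 in edgeR with TMM, 4 by library size alone, 182 in DESeq2 and 1 to 94 without 1 library. Calls lost in smaller fits rest on fewer libraries by construction, and other causes were not tested.

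With the replicate block, 2603 genes were called under heat, 274 at control and 34 for the interaction. With the replicate block within the 6 libraries of a condition, an alternative chosen after seeing the data, 2919 were called under heat and 1156 at control. Under heat the correlations of same-numbered libraries were 0.0594, 0.202 and 0.339. While hop heat replicate 1 correlated best with wt heat replicate 2 (0.132), hop heat replicates 2 and 3 correlated best with the wt library of their own number. Whether the numbers pair the heat libraries cannot be told from this check.

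Among the genes named by the rule, some near no difference changed sign. By library size alone HSP17.6C was at -0.08, ROF1 at -0.09, MBF1C at -0.11 and bZIP60 at -0.07, and MBF1C was at -0.00 in edgeR with TMM. Without 1 library ROF1 ran from -0.01 to 0.12, MBF1C from -0.04 to 0.12, BIP3 from -0.87 to 0.46 and bZIP60 from -0.07 to 0.21. Depth limits genes of a few fragments, such as FLS2, BIP3 and CYP79F2.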

Other observations

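Families were counted by words of the gene descriptions, chosen after their values were seen. Of 64 genes described as late embryogenesis abundant, which protect cells in drying seeds, 10 rose and 1 fell in hop under heat (17.2% called, beside 8.62% of all genes), with a median of 0.31. AT3G17520 had 239, 296 and 359 normalized counts in hop heat and 55.5, 111 and 87.0 in wt heat (1.84, adjusted p = 0.000629). AT3G02480 had 1254, 1576 and 1404 in hop heat and 521, 763 and 721 in wt heat (1.09, adjusted p = 0.000629). At control 6 genes of the family were called, all higher in hop.

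Of 10 genes described as COP9 signalosome subunits 6 fell under heat (60% called, beside 8.62% of all genes, median -0.47). FUS6, subunit 1, had 314, 300.4 and 342 in hop heat and 539, 490 and 600 in wt heat (-0.76, adjusted p = 0.00258). CSN6A had 302, 332 and 264 in hop heat and 517, 486 and 559 in wt heat (-0.80, adjusted p = 0.000592). F-box genes, whose proteins pick targets for cullin ubiquitin ligases, fell in 39 and rose in 10 of 340 cases (14.4% called, median -0.12).

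Of 6 cystatin-domain genes 4 fell under heat (66.7% called, beside 8.62% of all genes), and 3 were called lower at control. AT5G05060 had 188, 187 and 151 in hop heat and 625, 720 and 662 in wt heat (-1.93, adjusted p = 1.29e-06), and it was lower in hop at control too (-2.17, adjusted p = 1.21e-07). Of 41 RNA polymerase subunit genes 7 fell and 2 rose (22% called, beside 8.62% of all genes). NRPB4 (-0.46, adjusted p = 0.00436) and NRPB3 (-0.39, 0.0161) fell, while NRPB1, the largest subunit of RNA polymerase II, rose (0.48, 0.0140). Of 117 UDP-glycosyltransferase genes 9 rose and 0 fell in limma (7.69% called). Over all genes 8.62% were called in either direction and 3.73% were called higher. Pentatricopeptide repeat genes (17 higher, 28 lower of 436) and disease resistance genes (5 higher, 8 lower of 150) were called in 10.3% and 8.67% of cases. Both shares lie near the 8.62% of all genes.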
